A study of Mus musculus with 8 samples.

Results

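Hepatocytes reshape fatty acids by desaturation and elongation and take them up from blood, and this set of 10 genes covers those steps: Fads1, Fads2 and Scd2 among the desaturases, Elovl1, Elovl2, Elovl3 and Elovl5 among the elongases, and Cd36, Fabp1 and Vldlr among the proteins of uptake. The genes were taken by name, though with earlier results of these data known, and all 10 were found among the 56953 gene identifiers counted in each liver. The counts came from 8 livers of adult male mice, 4 control mice of wild-type (WT) genotype and 4 HSC-PCK1-KO mice, which lack PCK1, an enzyme of glucose synthesis, in hepatic stellate cells, which store vitamin A and turn into myofibroblasts when liver is injured. For 8 weeks both groups were fed CDHFD, a high-fat diet without choline that leads to fatty and scarred liver, so no liver on another diet serves as a baseline. The promoter that drove the deletion is not stated in the labels. The comparison asks whether losing PCK1 in a minor cell type of the liver goes with a change in the mRNA of these lipid enzymes and carriers, most of which hepatocytes make.

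Desaturases place double bonds into fatty acyl-CoA, and elongases of the ELOVL family catalyse the first step of adding a pair of carbons. Fads2 and Fads1 act in turn, with Elovl5 and Elovl2 between and after them, to turn the essential fatty acids of the diet into arachidonic, eicosapentaenoic and docosahexaenoic acid. In liver these genes are classical targets of SREBP1, LXR and PPAR-alpha, and Cd36, Fabp1 and Vldlr are known targets of PPAR family receptors. Bulk liver RNA cannot tell fewer cells of a type from less RNA per cell.

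Totals per library ranged from 44695439 to 49477255 counts, and 15669 genes had enough counts to be tested, all 10 genes of the set among them. Pck1 itself ranged from 551 to 2012 counts per 1000000 counts of the library (CPM) in control and from 339 to 948 CPM in HSC-PCK1-KO livers, which does not check a deletion confined to stellate cells, because hepatocytes express the gene strongly. Alb, the hepatocyte marker albumin, stood at 57491 to 81245 CPM in the 8 libraries. The summed level of 10 recruited macrophage markers was 69.9 to 283.6 CPM in the controls and 108.3 to 168.0 CPM in HSC-PCK1-KO livers, and that of 8 endothelial markers was 274.0 to 321.0 and 249.7 to 316.9 CPM. Cd36 and Vldlr are also made by macrophages and endothelial cells, and the part of these cells in their levels was not tested. Of 11 stellate cell and myofibroblast markers, 10 had a negative log2 fold change (HSC-PCK1-KO minus control), with a median of -0.24, and Colec11 did not overlap between the groups. Over all genes tested 51.8% were negative, with a median of -0.0055. Other marker lists leaned the same way: recruited macrophages (8 of 10, median -0.23), cholangiocytes (4 of 5, -0.23), Kupffer cells (6 of 8, -0.053) and endothelium (6 of 8, -0.068). Of 9 hepatocyte markers 6 were negative (-0.020), and of 7 lymphocyte markers 1 was (0.21). The mesothelial markers Upk3b (3.37 against 0.97 CPM in the group means, edgeR log2 fold change -1.79, SE 0.37) and Msln (2.16 against 0.80 CPM, -1.44, SE 0.35) were lower in all 4 HSC-PCK1-KO libraries than in any control. Both had an adjusted p of 0.9998 in edgeR, and DESeq2 called Upk3b (adjusted p = 0.00971). Wt1, the remaining mesothelial marker listed, overlapped between the groups (log2 fold change -0.67, SE 0.53). Over all genes tested, the groups did not overlap in 1.53%. Colec11, Upk3b, Msln and Wt1 were named after their values were seen, and their part in the levels of the 10 genes was not tested.

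Promoters are shown for 3 of the genes whose levels are followed below: Elovl5, whose level correlated with that of Fads1 over the 8 livers, and Fabp1 and Cd36, whose ranks followed each other. Each is taken from the 250 bases before the RefSeq transcription start, on the gene's own strand and written 5′ to 3′, from RefSeq's GRCm38.p6. That is an earlier build than the GRCm39 behind the counts. None of these starts is the first base of a GENCODE M21 transcript: the nearest lies 1 base before the RefSeq start in Elovl5, 52 bases before it in Fabp1 and 179 bases after it in Cd36. Bases that GENCODE places in an exon are left out, which leaves 249 bases of Elovl5, 198 of Fabp1 and 250 of Cd36. Capitals mark matches, on either strand, to the motifs searched. They were the box bound by NF-Y, with the letters CCAAT. The E box of basic helix-loop-helix factors was read as CACGTG. The TATA box was read as TATAAA, and the box bound by Sp1 as GGGCGG. The core of the sterol regulatory element, bound by SREBP proteins, was TCACNCCAC. The PPAR element is a direct repeat of 2 hexamer sites, with 1 mismatch allowed, and no motif overlapped another in the 3 sequences shown.
Elovl5 (chr9:77917115-77917363, plus strand): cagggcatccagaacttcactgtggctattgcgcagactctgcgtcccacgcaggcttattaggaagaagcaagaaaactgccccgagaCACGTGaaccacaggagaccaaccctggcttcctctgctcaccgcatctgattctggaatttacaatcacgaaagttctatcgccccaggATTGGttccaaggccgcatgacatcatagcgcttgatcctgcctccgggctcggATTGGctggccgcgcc
Fabp1 (chr6:71199629-71199826, plus strand): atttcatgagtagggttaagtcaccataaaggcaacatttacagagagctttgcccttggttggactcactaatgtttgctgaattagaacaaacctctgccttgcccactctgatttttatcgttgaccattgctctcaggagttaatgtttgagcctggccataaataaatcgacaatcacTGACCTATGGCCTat
Cd36 (chr5:17835897-17836146, minus strand): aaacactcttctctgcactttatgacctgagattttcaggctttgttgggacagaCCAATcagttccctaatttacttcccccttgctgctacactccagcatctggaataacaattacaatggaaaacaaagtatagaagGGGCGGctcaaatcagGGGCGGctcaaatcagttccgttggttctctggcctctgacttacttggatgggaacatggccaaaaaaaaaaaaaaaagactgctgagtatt

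The RefSeq table held 10 promoter windows of 300 bases for 7 of the 10 genes, each with 250 bases before and 50 after the start. Fabp1 carried a PPAR element starting 67 bases before its start, beside a TATA box at 30 bases, which lies in the exon that GENCODE annotates and is not shown. The other window of the set with a PPAR element was the second start of Elovl1, at 95 bases, and 0.554% of all 32851 windows in the table hold one. Elovl5 had an E box at 161 bases and NF-Y boxes at 71 and 17 bases, against shares of 7.15% and 37.4% of all windows. The Fads2 window held a single match, an Sp1 box at 186 bases, and 35.7% of all windows hold one. GENCODE starts Fads2 243 bases before the RefSeq start, so nearly all of that window is exon there and it is not shown. The sterol regulatory core was in 0 of the 10 windows and in 1.24% of all windows. An NF-Y box at 195 bases and Sp1 boxes at 109 and 93 bases were the matches of Cd36. A match of letters is not a bound site, and the 300 bases leave out any more distant element.

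None of the 10 genes passed the test between the genotypes. In edgeR's quasi-likelihood test 0 of the 10 passed an adjusted p of 0.05, as did 0% of all 15669 genes tested. Without adjustment, 0 of the 10 had a p under 0.05, against 2.36% (370) of all genes, and DESeq2 and limma-voom gave 0 of the 10 as well. Over all genes DESeq2 called 6, none of them in the set, and limma-voom called 0. In all 10 genes the groups overlapped, and they did not overlap in 1.53% of all genes tested. Of the 10, 5 had a negative log2 fold change (HSC-PCK1-KO minus control) and 5 a positive one, with a median of -0.0082, beside a median of -0.0055 and 51.8% negative over all genes tested. For 6 of the 10, Fads1, Fads2, Elovl1, Elovl2, Elovl5 and Fabp1, the 95% interval excluded a 1.5-fold change in either direction. The intervals of Elovl3, Cd36 and Vldlr reached beyond a 2-fold rise, and that of Scd2 beyond a 2-fold fall. The split of directions moved with single libraries of both groups. Without control replicate 1 it was 1 negative and 9 positive, and without control replicate 2 it was 8 negative and 2 positive. The number of negative genes was 3 without HSC-PCK1-KO replicate 1, 7 without replicate 2 and 3 without replicate 4.

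**Figure D1:**
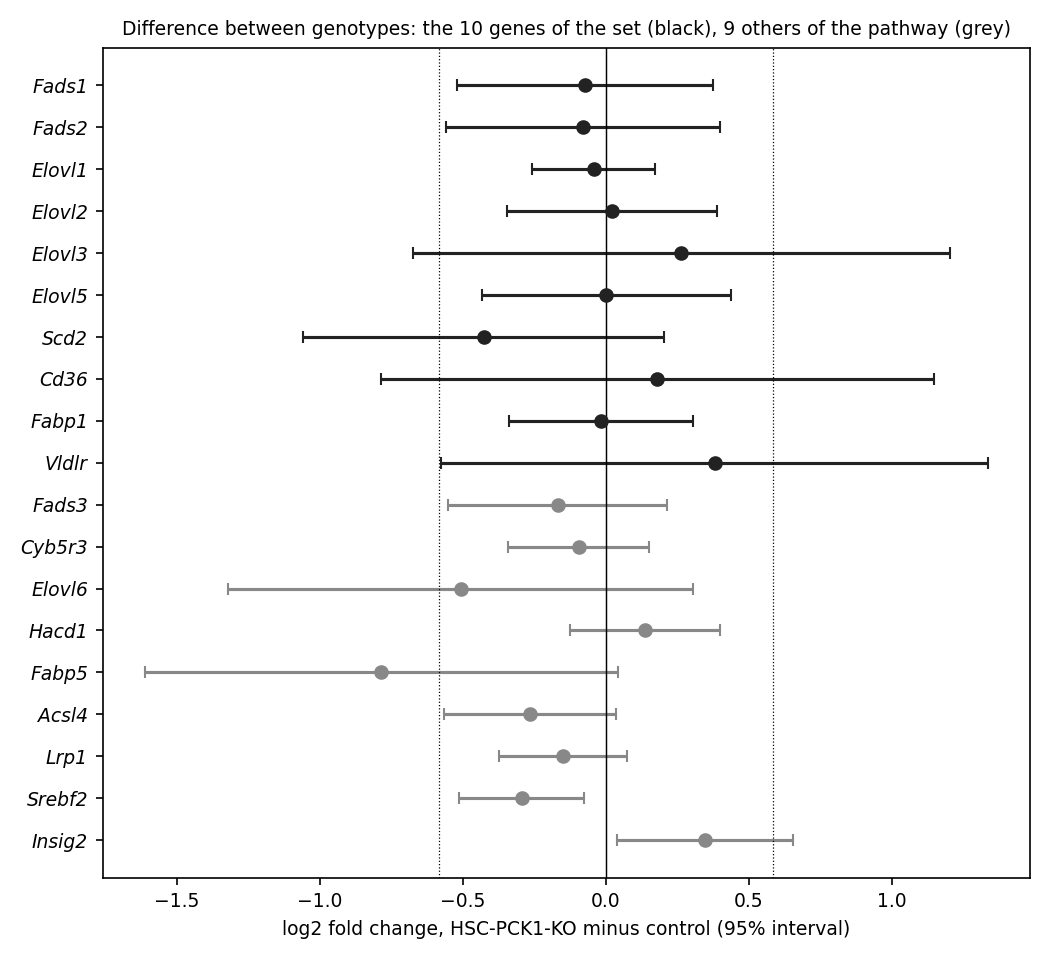
Log2 fold change of HSC-PCK1-KO against control (horizontal axis) for the 10 genes of the set, in black, and for 9 other genes of the pathway, in grey. Points are edgeR estimates from 4 libraries a group, bars are 95% intervals and dotted lines mark 1.5-fold changes. All 10 black intervals cross 0, and those of Elovl3, Cd36 and Vldlr are the widest of the 10.

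Fads2, the desaturase that opens the synthesis of highly unsaturated fatty acids, was among the strongest genes of the set. It stood at 1847, 1037, 1340 and 1461 CPM in control replicates 1 to 4 and at 972, 1823, 1347 and 1235 CPM in HSC-PCK1-KO replicates 1 to 4. Each group held both a low and a high liver, so the spread within a genotype was wider than the gap between the means of 1421 ± 335 and 1344 ± 356 CPM (SD, n = 4 each). The log2 fold change was -0.08 (SE 0.21, adjusted p = 0.9998 in edgeR).

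Fads1, which acts after Fads2 and yields arachidonic and eicosapentaenoic acid, followed the same pattern at a lower level. It had 997, 533, 732 and 795 CPM in the control libraries and 553, 916, 741 and 698 CPM in the HSC-PCK1-KO libraries. Control replicates 1 and 2 were its highest and lowest of all 8 livers. Its log2 fold change of -0.07 (SE 0.20) had a 95% interval from -0.52 to 0.37.

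Scd2, a stearoyl-CoA desaturase that makes monounsaturated fatty acids and is better known from brain and newborn liver, was a minor transcript. It stood at 15.2, 6.06, 8.64 and 12.3 CPM in the 4 controls, and 5.74, 9.77, 7.62 and 8.33 CPM in HSC-PCK1-KO livers. The 2 highest values were both controls, yet control replicate 2 lay below 3 of the 4 HSC-PCK1-KO libraries. Scd2 had the smallest unadjusted p of the 10 (0.159 in edgeR), and its log2 fold change of -0.43 (SE 0.28) was -0.20 without control replicate 1. Scd1, the main form of adult liver, had far more reads, from 2125 to 21115 CPM, and 0.88% of the 100-base windows of Scd2 transcripts are found in Scd1 or Scd3 too. Reads of Scd1 could therefore add to the few counts of Scd2, and its level is uncertain. None of the other 9 genes shared a window of this length with a transcript of another gene.

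Elovl5 and Elovl2 extend the polyunsaturated chains that Fads2 and Fads1 make. Elovl5, which acts on the shorter ones, stood at 1939, 959.5, 1494 and 1443 CPM in the 4 controls, and 1379.7, 1797, 1364 and 1299 CPM in HSC-PCK1-KO livers. The means of 1459 ± 400.5 and 1459.9 ± 227 CPM were nearly equal, with a log2 fold change of 0.0012 (SE 0.20). Elovl2, which extends the longer chains on the way to docosahexaenoic acid, had 826, 724, 799 and 803 CPM in the 4 controls, and 558, 1063, 764 and 816 CPM in HSC-PCK1-KO livers. Its 4 controls lay close together while HSC-PCK1-KO replicates 1 and 2 were the lowest and the highest of the 8. The SD was thus 44.6 CPM among controls against 208 CPM among HSC-PCK1-KO libraries, a difference in spread that was not tested.

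Elovl1 and Elovl3 work on saturated and monounsaturated chains. Elovl1, which makes very long chains for sphingolipids in most tissues, was the steadiest gene of the set, at 69.0, 58.2, 54.1 and 60.7 CPM in the 4 controls, and 54.4, 61.5, 66.2 and 52.9 CPM in HSC-PCK1-KO livers. Elovl3, known in mouse liver for a daily rhythm and a higher level in males, was the most uneven. It had 306, 547, 204 and 182 CPM in the 4 controls, and 267, 361, 582 and 278 CPM in HSC-PCK1-KO livers, so that one library of each genotype stood near the top. Its log2 fold change of 0.26 (SE 0.40) ran from -0.04 when HSC-PCK1-KO replicate 3 was left out to 0.69 when control replicate 2 was. The labels do not state the time of day at which livers were taken. Cdc20 and Pitx3 overlap Elovl1 and Elovl3 on the opposite strand in the GENCODE M21 annotation, and the strand setting of the counting is not given, but both were low, at most 4.65 and 0.259 CPM.

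Cd36, the membrane protein that takes up long-chain fatty acids, ranged 4.35-fold between livers. It stood at 220.1, 50.6, 97.1 and 149 CPM in the 4 controls, and 186, 157, 123 and 120.5 CPM in HSC-PCK1-KO livers. The HSC-PCK1-KO libraries lay inside the range of the controls, whose replicates 1 and 2 set both ends. The log2 fold change of 0.18 (SE 0.41) was 0.56 without control replicate 1 and -0.09 without control replicate 2.

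Fabp1, which binds fatty acids within the hepatocyte, was the most abundant gene of the set and among its steadiest. It had 4415, 2934, 3074 and 3416 CPM in the 4 controls, and 3659, 3815, 3204 and 2993 CPM in HSC-PCK1-KO livers, and its log2 fold change was -0.02 (SE 0.15, 95% interval -0.34 to 0.30). Vldlr, a receptor for triglyceride-rich lipoproteins that is scarce in healthy liver, stood at 5.76, 1.72, 2.66 and 4.00 CPM in the 4 controls, and 6.21, 5.65, 2.08 and 4.53 CPM in HSC-PCK1-KO livers. In 3 of the 4 HSC-PCK1-KO libraries it was above 3 of the 4 controls. The log2 fold change of 0.38 (SE 0.42) was the largest positive one of the 10 and ran from 0.16 without control replicate 2 to 0.72 without control replicate 1.

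**Figure D2:**
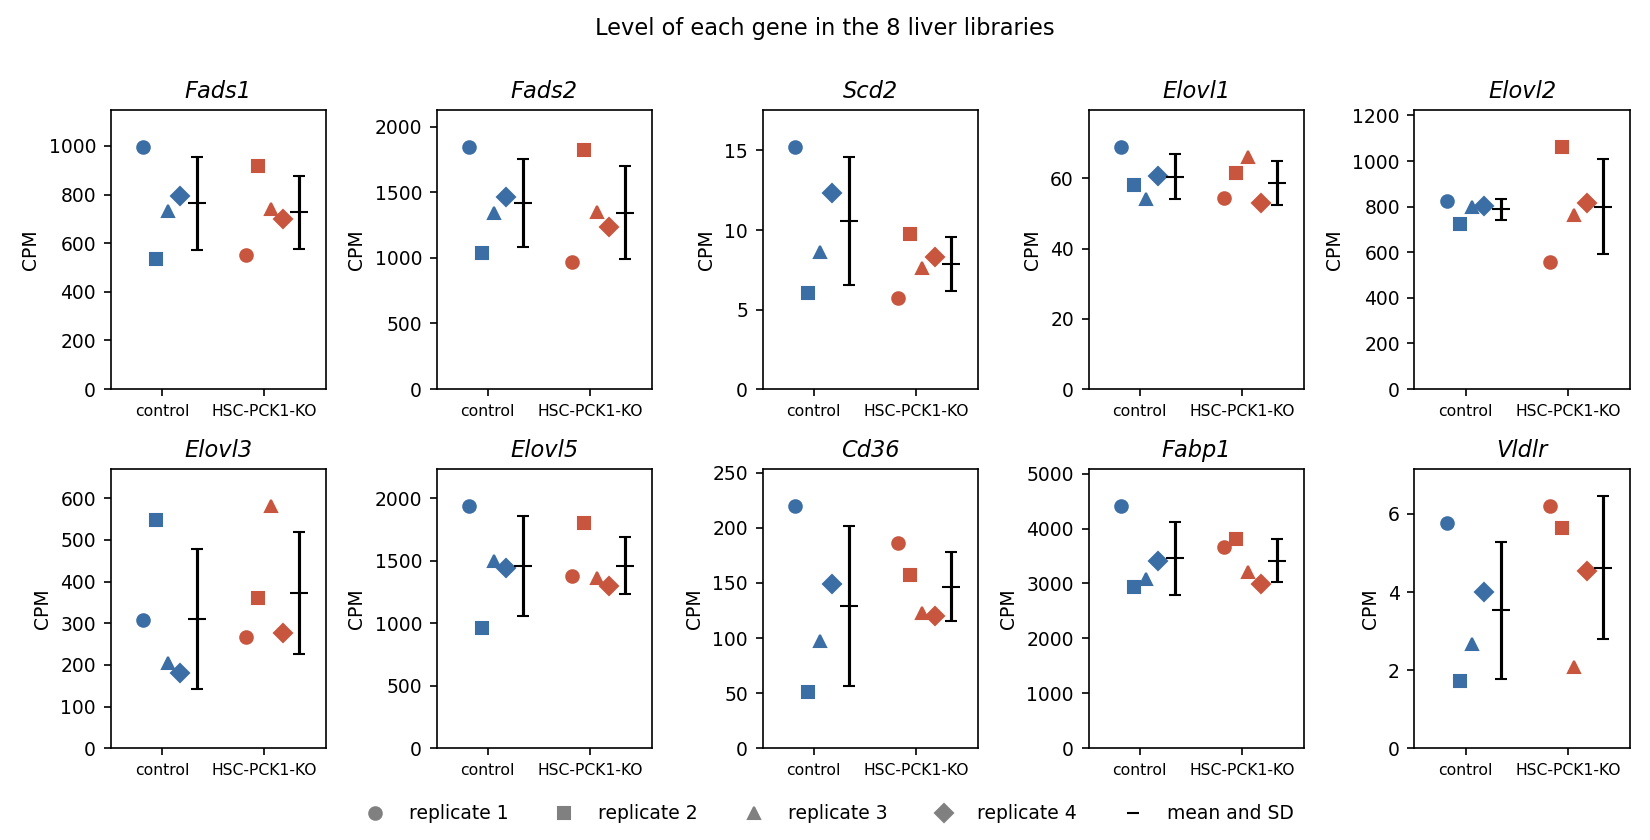
CPM (vertical axes, each from 0) of the 10 genes in the 4 control (blue) and 4 HSC-PCK1-KO (red) libraries. Symbols are replicate numbers, and black marks are means with SD. The groups overlap in every panel. Control replicate 1 is the highest library for 7 of the 10 genes and control replicate 2 the lowest for 5.

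Per kilobase of exon, which allows genes to be set beside each other, Fabp1 had by far the highest level, at 6218 ± 913 CPM per kilobase over the 8 libraries (SD). Fads2 at 419.7 ± 97.95 and Elovl5 at 414 ± 85.6 CPM per kilobase followed, with ranges that overlapped (295 to 561 and 272 to 550.5). Elovl2 (200.2 ± 35.1), Elovl3 (173 ± 75.5) and Fads1 (155 ± 33.3 CPM per kilobase) came next, with ranges that overlapped each other, and the highest library of Elovl3 (295) lay above the lowest of Elovl5. Cd36 at 38.4 ± 14.7 and Elovl1 at 21.9 ± 2.15 CPM per kilobase overlapped as well. Scd2 at 1.69 ± 0.59 and Vldlr at 0.41 ± 0.17 CPM per kilobase were the lowest, and their ranges touched neither each other nor any other gene of the set. With the longest transcript as the length, Elovl5 (525 CPM per kilobase) came before Fads2 (439) and Fads1 (215) before Elovl2 (207) and Elovl3 (181), and the other 5 genes kept their places.

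The set varied from liver to liver more than most genes. The SD as a percent of the mean over the 8 libraries was 43.8% for Elovl3, 43.1% for Vldlr, 38.2% for Cd36 and 34.8% for Scd2, against a median of 10.6% over the 12563 genes with at least 1 CPM. It was 23.3% for Fads2, 21.5% for Fads1, 20.7% for Elovl5, 17.5% for Elovl2 and 14.7% for Fabp1. Only Elovl1, at 9.84%, was under that median. Among genes within 2-fold of its own level, Elovl3 was more variable than 98.3% and Cd36 than 98.02%. Fabp1 was more variable than 67.8% of the 59 genes at its level, and Elovl1 than 66.1% of the 3012 at its own. These figures describe the 8 livers and mix both genotypes.

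Across the 8 libraries, 37 of the 45 pairs of genes had a positive correlation of log2 CPM, with a median Pearson's r of 0.58 and a range from -0.51 to 0.98. Within the 4 controls 37 pairs were positive with a median of 0.91, and within the 4 HSC-PCK1-KO livers 31 were, with a median of 0.36. Pairs could differ in sign between them: Fads1 and Cd36 had r = 0.988 in the controls and -0.36 in the HSC-PCK1-KO livers, a difference that was not tested. After Benjamini-Hochberg adjustment of exact permutation p-values over the 45 pairs, 6 passed 0.05. How often pairs of other genes are positive or pass in these 8 libraries was not tested. The counts and medians of r therefore describe the set and do not set it apart from other genes. Fads1 and Fads2 were the closest pair (r = 0.984, exact permutation p = 0.000322, adjusted p = 0.0145, and Spearman's rho = 0.976, exact permutation p = 0.000397). That r was 0.994 without control replicates 1 and 2, the libraries farthest from the median of Fads1, and 0.984 after the mean of each genotype was subtracted. Within the 4 control livers it was 0.997 and within the 4 HSC-PCK1-KO livers 0.995. Both genes lie next to each other on chromosome 19, with Fads3 on the other side of Fads2, and do not share sequence windows.

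In 4 of the other 5 pairs that passed, r was lower once the 2 libraries farthest from the median of the first-named gene were left out. Which pair was the exception depended on the gene that chose the libraries. Fads1 and Scd2 had r = 0.905 (exact permutation p = 0.00469, adjusted p = 0.0439, and rho = 0.881, exact permutation p = 0.00724), and r = 0.811 without control replicates 1 and 2. Fads1 and Elovl5 had r = 0.878 (exact permutation p = 0.00543, adjusted p = 0.0439, and rho = 0.833, exact permutation p = 0.0154), and r = 0.696 without the same libraries. Fads2 and Scd2 had r = 0.875 (exact permutation p = 0.00585, adjusted p = 0.0439, and rho = 0.905, exact permutation p = 0.00456), and r = 0.729 without control replicate 1 and HSC-PCK1-KO replicate 1. Because stray Scd1 reads may enter the Scd2 counts, the pairs with Scd2 carry that doubt too.

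Fads2 and Elovl2 had r = 0.826 (exact permutation p = 0.00384, adjusted p = 0.0439, and rho = 0.8095, exact permutation p = 0.0218), and r = 0.884 without control replicate 1 and HSC-PCK1-KO replicate 1. With the libraries chosen by Elovl2 instead, r was 0.759. The uptake pair Cd36 and Vldlr had r = 0.854 (exact permutation p = 0.00255, adjusted p = 0.0439, and rho = 0.857, exact permutation p = 0.0107), and r = 0.761 without control replicates 1 and 2. With the libraries chosen by Vldlr, r was 0.863. By rank, 2 pairs passed the adjustment: Fads1 with Fads2, and Cd36 with Fabp1 (rho = 0.952, exact permutation p = 0.00114, adjusted p = 0.0257, where Pearson's r was 0.824 with an exact permutation p of 0.0123 and an adjusted p of 0.0613). Without the 2 libraries farthest from the median of Cd36, r for Cd36 and Fabp1 was 0.851.

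With the genotype means subtracted, 2 of the 45 pairs passed in an exact permutation test within genotypes, Fads1 with Fads2 (adjusted p = 0.0391) and Elovl2 with Scd2 (r = 0.638, adjusted p = 0.0391 by the same exact test). Without the 2 libraries farthest from the median of the first-named gene of each pair, 3 passed. They were Fads1 with Fads2, Fads2 with Fabp1 and Elovl2 with Vldlr, each with an adjusted exact permutation p of 0.0208. The last pairs had r = 0.626 and 0.0896 over all 8 libraries, and r = -0.13 in both when the libraries to leave out were chosen by the other gene, so they rest on the choice of libraries. Fads1 with Fads2 is the pair that passed in all of these. Its exact permutation p was the smallest possible both within genotypes (0.00174) and without the 2 farthest libraries (0.00139). A single pair at either p would not pass after adjustment over the 45. Its passing in these 2 tests thus depended on other pairs tied at the same p.

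**Figure D3:**
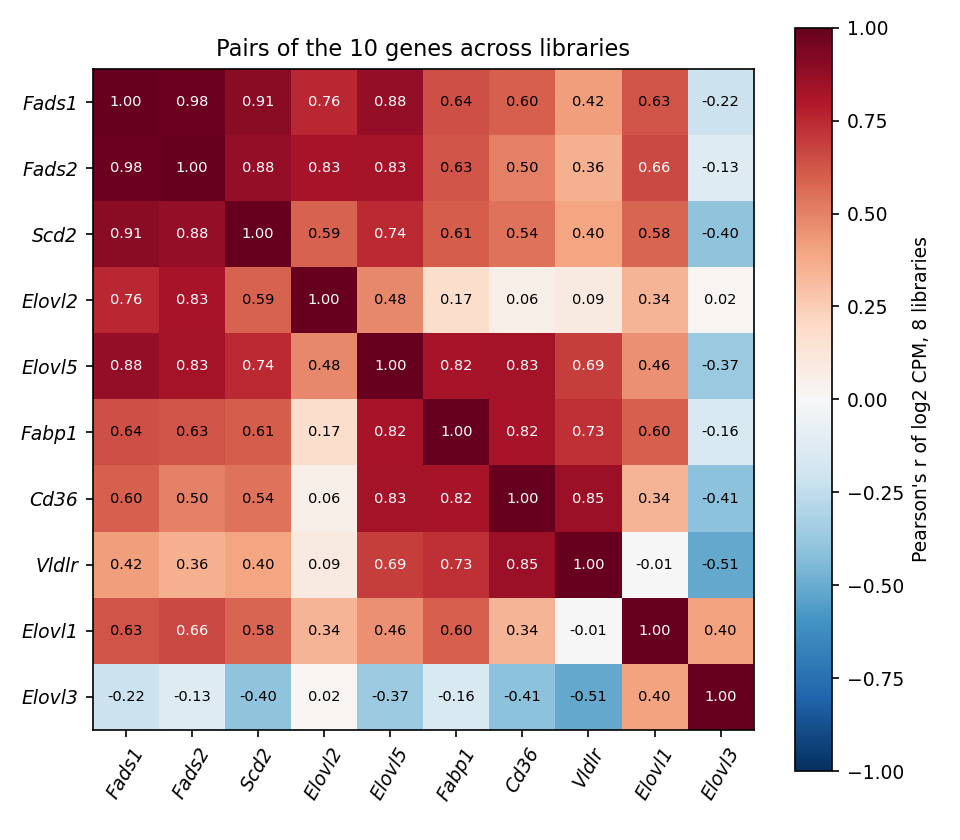
Pearson's r of log2 CPM over the 8 libraries for each pair of the 10 genes, with red for positive and blue for negative values. The block at the upper left holds Fads1, Fads2, Scd2, Elovl2 and Elovl5, from 0.48 to 0.98. Cd36, Fabp1 and Vldlr form another, from 0.73 to 0.85, and the row of Elovl3 is mostly blue. The order of genes was set by hand, and the blocks are not separate. Elovl5 had r = 0.83 with Cd36, 0.82 with Fabp1 and 0.69 with Vldlr, where Elovl2 had 0.06, 0.17 and 0.09.

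Elovl3 did not follow the others over all 8 livers. Its r was negative with 7 of the 9 other genes, from -0.51 with Vldlr to 0.40 with Elovl1, and none of the 9 passed (smallest adjusted exact permutation p = 0.339). The sign was not stable: r was negative in 8 of the 9 pairs within the controls, but positive in 6 within the HSC-PCK1-KO livers. It was also positive in 6 once the 2 libraries farthest from the median of 1 gene of each pair were left out. Where control replicate 2 was the lowest library for Fads1, Elovl5, Cd36, Fabp1 and Vldlr, it was the second highest for Elovl3.

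The genes whose levels were most like each member's were sought among 11577 others with at least 1 CPM, by Pearson's r of log2 CPM over the 8 libraries. The highest of so many values is high by the search itself, so they are named as a description. For Elovl3 they were Cry1 (r = 0.972), a repressor of the circadian clock, and Crlf2 (0.951). Cry1 stood at 9.03, 10.9, 6.28 and 5.95 CPM in the 4 controls, and 7.33, 8.61, 10.9 and 8.09 CPM in HSC-PCK1-KO livers, with its 2 highest values in the libraries where Elovl3 was highest.

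For Fabp1 they were Nadk (0.971), which makes NADP, and Ehhadh (0.961), an enzyme of peroxisomal beta-oxidation. For Vldlr they were Acot4 (0.979), a peroxisomal thioesterase, and Slc16a7 (0.953), a monocarboxylate transporter. For Cd36 they were Slc22a27 (0.991), of the organic anion transporter family, and Smap1 (0.978). Slc22a27 ran from 1.13 CPM in control replicate 2 to 17.4 CPM in control replicate 1, the same ends as Cd36.

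Fads1 was most like Fads2 (0.984) and Impa2 (0.9747), and Fads2 was most like Large2 (0.992) and Fads1 (0.984), so each was in the other's first 2 of 11577 genes. Elovl5 was most like Dhx35 (0.974) and Vegfb (0.966), and Elovl2 like Camsap3 (0.972) and Zbtb42 (0.943). Arfgap3 (0.9695) was among the genes most like Elovl1, and Scd2 was most like Gas2l3 (0.971) and Nabp1 (0.953).

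**Figure D4:**
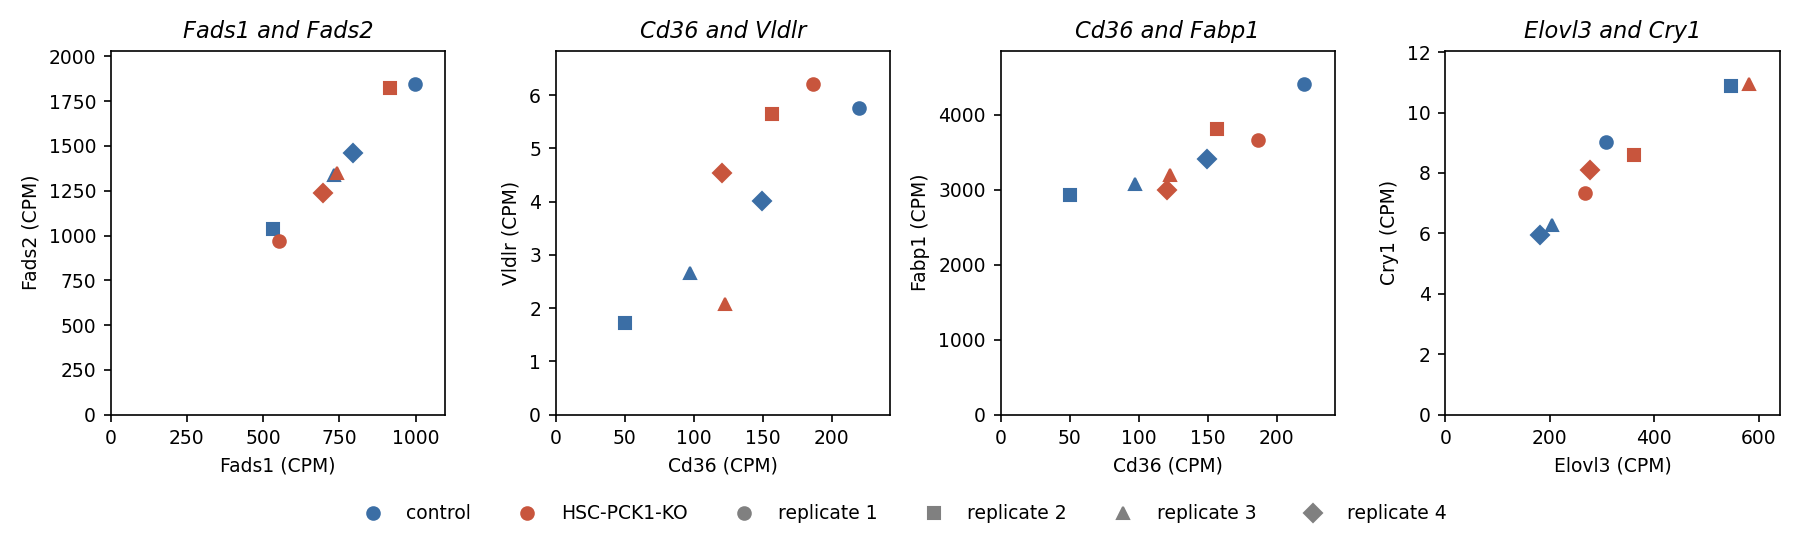
CPM of 4 pairs of genes in the 8 libraries, control in blue and HSC-PCK1-KO in red, with symbols for replicate numbers and axes from 0. Fads1 and Fads2 (r = 0.984) lie along a line on which both genotypes mix. Cd36 with Vldlr (r = 0.854) and Cd36 with Fabp1 (r = 0.824) spread more widely, and Elovl3 with Cry1 (r = 0.972) has control replicate 2 and HSC-PCK1-KO replicate 3 at its top.

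Ratios within a library do not depend on scaling between libraries, and 4 were compared. The Fads2 to Fads1 count ratio was nearly fixed, from 1.76 to 1.99 over the 8 livers, at 1.87 ± 0.053 in control and 1.83 ± 0.11 in HSC-PCK1-KO (SD, n = 4, exact two-sided permutation p = 0.543, adjusted p = 0.724 over the 4 ratios). Its SD was 4.35% of its mean, beside 21.5% for Fads1 and 23.3% for Fads2 alone. The Elovl5 to Elovl2 ratio was 1.83 ± 0.42 and 1.89 ± 0.40 (exact permutation p = 0.914, adjusted p = 0.914). The Cd36 to Fabp1 ratio ran from 0.0173 in control replicate 2 to 0.0509 in HSC-PCK1-KO replicate 1, with means of 0.0356 ± 0.014 and 0.0426 ± 0.0056 (exact permutation p = 0.429, adjusted p = 0.724). The Scd2 to Scd1 ratio was 0.00174 ± 0.0010 and 0.00127 ± 0.00072 (exact permutation p = 0.543, adjusted p = 0.724). With 4 against 4 libraries the smallest p this test can give is 0.0286. Single libraries moved the difference in log2 ratio (HSC-PCK1-KO minus control). For Cd36 to Fabp1 it was 0.36, or 0.048 without control replicate 2 and 0.56 without control replicate 1. For Scd2 to Scd1 it was -0.41, or -0.098 without control replicate 2 and -0.76 without control replicate 1. For Fads2 to Fads1 it was -0.027, or -0.0072 without control replicate 2. Leaving out HSC-PCK1-KO replicate 2 gave -0.067, with an exact permutation p of 0.0286 and an adjusted p of 0.114. That p is again the smallest the test can give. After adjustment over the 4 ratios, 1 ratio alone could not pass.

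Other genes of the pathway did not pass either. Of 65 further genes listed for it, 58 were tested, and 0 were called in edgeR, DESeq2 or limma-voom. In edgeR 3 of the 58 had an unadjusted p under 0.05, beside 370 of all 15669 genes tested (2.36%). That count was 5 in DESeq2, 4 in limma-voom and 1 in edgeR with the replicate block. Among 7 other desaturase and electron donor genes, 4 were negative and 3 positive, with Fads3 at a log2 fold change of -0.17 and Cyb5r3, which passes electrons to the desaturases, at -0.10. With 1 library left out, Fads3 ran from -0.30 (HSC-PCK1-KO replicate 4) to -0.037 (control replicate 1) and Cyb5r3 from -0.15 (HSC-PCK1-KO replicate 2) to -0.019 (HSC-PCK1-KO replicate 4). Among 8 other genes of elongation, 4 were negative and 4 positive, with Elovl6 at -0.51, or -0.0077 without control replicate 1, and Hacd1 at 0.14, or 0.23 without control replicate 1.

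Of 15 other genes of fatty acid uptake, binding and activation, 13 were negative, with a median of -0.058. Fabp5, a binding protein of macrophages and skin, had 19.99, 8.73, 15.3 and 11.4 CPM in the 4 controls, and 5.03, 13.5, 6.23 and 7.42 CPM in HSC-PCK1-KO livers, a log2 fold change of -0.78 (SE 0.36). Acsl4, which activates arachidonic acid, was at -0.27 (SE 0.14), or -0.14 without control replicate 1. Of 11 other genes of lipoprotein lipid uptake, 8 were negative, with a median of -0.078 and Lrp1 at -0.15 (SE 0.10), or -0.067 without control replicate 2. These medians stand beside -0.0055 for all genes tested, and none of the genes passed.

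Of 17 transcriptional regulators of these genes, 11 were negative and 6 positive. The 3 pathway genes with an unadjusted p under 0.05 in the main edgeR fit were all in this list. Srebf2, which drives cholesterol synthesis, was at -0.29 (SE 0.098), and Insig2, which holds SREBP proteins in the endoplasmic reticulum, at 0.35 (SE 0.14), both with an adjusted p of 0.9998 in edgeR. Scap, the escort of SREBP proteins and the third of them, was at -0.24 (SE 0.097). Srebf1, the SREBP gene most tied to Fads1, Fads2 and Elovl5, stood at 313 ± 55.9 and 281 ± 34.4 CPM (SD, n = 4), and Ppara at 98.3 ± 9.63 and 88.9 ± 13.3 CPM. These 3, Scap, Srebf1 and Ppara, were named after their values were seen.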

How the data were processed

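Liver RNA of 8 mice was sequenced, and the authors deposited raw counts, a whole number per gene identifier and library. Per the labels' protocols, poly(A) RNA was enriched and paired, strand-specific libraries were made. Per the submitters' processing notes the build was GRCm39 and R 4.3.2 was used; the aligner, counter, annotation and strand setting were not given in the sources used here. Symbols came by identifier from GENCODE M21 (GRCm38), which named 52029 of 56953 identifiers.

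The main test was edgeR 4.0.16 (R 4.3.3): filterByExpr, TMM factors, robust quasi-likelihood F-test of genotype over all 8 libraries, Benjamini-Hochberg adjustment over 15669 genes, threshold 0.05. CPM are counts over TMM-scaled library totals, log2 CPM has a prior count of 2, and lengths are unions of exons in GENCODE M21. Correlations and ratios used exact permutation tests in Python 3.11.15 with statsmodels 0.14.6 for adjustment. The series design calls the 4 libraries of a group biological replicates. The alternatives changed the factors (RLE or upper quartile), the filter (none, or 1 CPM in at least 4 libraries), the tool (limma 3.58.1 with voom and quality weights, or DESeq2 1.42.0) and the block (replicate number). Others were an adjusted p of 0.1, 0.5 added to counts in ratios, the longest transcript as length, and leaving out each library. The fit was tested on simulated data.

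The genes and lists were chosen with earlier results of these data known. Named beside the 10 genes are, by rule, in each other pathway list the 2 lowest p-values, the 2 genes most like each member, the genes of the ratios, and Pck1. Of these, 2 are not reported here. Marker lists of hepatocytes, Kupffer cells, recruited macrophages, stellate cells, endothelium, cholangiocytes, lymphocytes, and adipocytes with mesothelium were summed per library. The sums overlapped between the groups in each list, from 383.3 to 584.4 CPM in control and 318.8 to 583.2 CPM in HSC-PCK1-KO for Kupffer cells and from 352.3 to 490.2 and 299.9 to 386.3 CPM for stellate cells. For hepatocytes the sums were 90739 to 111889.5 and 90291 to 110289 CPM, and for cholangiocytes 28.6 to 138.2 and 30.8 to 78.5 CPM. The cholangiocyte sum is mostly Spp1, 19.8 to 130.8 CPM over the 8 libraries, which the macrophage list also holds. Of the 5 cholangiocyte markers tested, 4 had a negative log2 fold change, and Epcam was at 0.20. Krt19 was low, at 0.92 against 0.60 CPM in the group means. Its log2 fold change was -0.61, with an unadjusted edgeR p of 0.0333 and an adjusted p of 0.9998. Krt19 and Epcam are outside the naming rule and were named after their values were seen. For lymphocytes the sums were 4.599 to 5.99 and 4.73 to 7.77 CPM, and for the last list 6.13 to 40.3 and 7.48 to 42.0 CPM. That sum is mostly Cidec, a lipid droplet gene (1.77 to 40.2 CPM), and the adipocyte markers Adipoq, Lep and Plin1 were at or under 0.041 CPM.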

Additional observations from a re-analysis of the deposited data

Results flagged for a closer look

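In groups of 4 libraries, 1 library lay far from the other 3 in 3 of the 48 groups examined (10 genes of the set, 10 other pathway genes and 4 ratios in each genotype), where chance gives about 2.4. Elovl5 stood at 1797 CPM in HSC-PCK1-KO replicate 2, above 1299 to 1379.7 CPM in the other 3. Fads3 stood at 4.27 CPM in HSC-PCK1-KO replicate 4, above 2.99 to 3.14 CPM. Elovl6 stood at 214.9 CPM in control replicate 1, above 68.9 to 90.2 CPM, and its log2 fold change of -0.51 was -0.0077 without that library.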

How the results depend on the processing

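No gene of the set and no other pathway gene was called under any alternative fit. Over all genes, DESeq2 called 6, an adjusted p of 0.1 called 0, and fits without 1 library called 0 to 1, the 1 being Gm15920 without control replicate 1. Same-numbered libraries did not deviate together: the correlation of their deviations was -0.33 to 0.058, and 1 of 8 libraries was most like its own number. With the replicate block 0 genes were called, 311 had an unadjusted p under 0.05, and the log2 fold change of Elovl2 turned from 0.022 to -0.014. That of Fabp1 was 0.0084 in limma-voom. RLE and upper quartile factors and the filters turned no direction in the 10 genes. Without 1 library the log2 fold change ran from -0.21 to 0.082 in Fads1, -0.26 to 0.071 in Fads2, -0.11 to 0.027 in Elovl1, -0.15 to 0.16 in Elovl2, -0.038 to 0.69 in Elovl3, -0.15 to 0.17 in Elovl5, -0.086 to 0.56 in Cd36 and -0.089 to 0.12 in Fabp1, each turning direction. Scd2 (-0.62 to -0.20) and Vldlr (0.16 to 0.72) did not turn, and Scd2 had an unadjusted p of 0.0205 without control replicate 2 (edgeR adjusted p = 0.9997). The log2 ratio of Elovl5 to Elovl2 ran from -0.10 to 0.17 without 1 library. Of the 45 pairs, 6 passed. The count was 2 with genotype means subtracted and 3 without the 2 libraries farthest from the median of 1 gene of the pair. The causes were not tested. At 4 libraries a group, the median SE of the 10 log2 fold changes was 0.21, and the intervals of Elovl3, Cd36, Scd2 and Vldlr still allow changes of 1.5-fold.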
